A study of Mus musculus with 6 samples.

Results

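Oxidative protein folding was described through 10 mouse genes, chosen by name: the protein disulfide isomerase (PDI) genes P4hb, Pdia3, Pdia4, Pdia5, Pdia6, Txndc5 and Txndc11, the retention factor gene Erp44, and the oxidase genes Ero1l (now Ero1a) and Ero1lb (now Ero1b). These genes, and the lists of other genes set beside them, were chosen with earlier results of these data known. All 10 were found among the 54232 Ensembl genes counted in each library, and all 10 passed the filter on low counts. RNA came from liver of male C57BL/6 mice on chow, 8 to 10 weeks old. The DKO group (Fxr-/-Xbp1LKO, 3 libraries) lacked the bile acid receptor FXR throughout the body and the transcription factor XBP1 in liver. The SKO group (Fxr-/-Xbp1fl/fl, 3 libraries) lacked FXR and kept floxed Xbp1 alleles. FXR loss was thus common to both groups, and the comparison is of Xbp1 genotypes within FXR-null liver. The deleter that removed Xbp1 is not named in the labels, and the titles of all DKO libraries and of 1 SKO library carry a pair of numbers that may stand for pooled mice. If so, pooling differs between the groups, and the spread within DKO may not be comparable with that within SKO.

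Secreted proteins acquire disulfide bonds in the endoplasmic reticulum (ER). PDI enzymes pass disulfides to clients and reshuffle wrong ones, ERO1 oxidases recharge the PDIs with oxidising power from oxygen, and ERp44 recaptures thiol-bearing clients and ERO1 itself in the early secretory pathway. XBP1, made active when the sensor IRE1 splices its mRNA, is a known activator of ER folding genes, and the hepatocyte, which secretes most plasma proteins, depends on this machinery.

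Levels are given as CPM, the counts scaled to a common library size. Total counts were 18382107 to 21107674 per DKO library and 16966422 to 20211285 per SKO library. Xbp1 stood at 67.0 to 95.7 CPM in DKO and 225 to 260.2 in SKO (log2 -1.68 ± 0.14, SE, edgeR adjusted p = 0.000146). The floxed exons are not given in the labels, so this checks the label by whole-gene counts. Nr1h4, which encodes FXR, was counted at 93.7 to 100.4 CPM in DKO and 92.7 to 104.6 CPM in SKO (log2 -0.02 ± 0.07, edgeR adjusted p = 0.891), so whole-gene counts do not check its deletion. Hspa5, encoding the chaperone BiP, was lower (645, 591 and 530 CPM in DKO and 754, 708 and 760 CPM in SKO, log2 -0.33 ± 0.10, edgeR adjusted p = 0.0443), as was the stress factor gene Atf4 (88.5 ± 3.32 CPM in DKO and 104.9 ± 4.12 CPM in SKO, log2 -0.25 ± 0.07, edgeR adjusted p = 0.0322). DKO replicate 1 lay at 39.3 on the first principal component of all genes tested, the other DKO libraries at 16.1 and 22.8, and the SKO libraries at -30.1 to -23.6. The liver markers Alb, Ttr, Apoa1, Serpina1a, Cps1 and Tat were abundant in every library. Their summed level was 48830 to 60890 CPM in DKO and 76400 to 103700 CPM in SKO, and edgeR called 4 of the 6 lower. Most of the sum was Alb, with means of 35760 CPM in DKO and 66410 CPM in SKO. The 4 lower genes were Alb, Ttr, Apoa1 and Serpina1a. Cps1 was not called (log2 -0.24, edgeR adjusted p = 0.314), nor was Tat, whose estimate was upward (log2 0.59, edgeR adjusted p = 0.328). Stellate and fibroblast markers (8 genes) summed to 530 to 804 CPM in DKO and 315 to 351 CPM in SKO, with 6 called higher. Beside these marker counts, 10.3% of all genes tested were called higher and 9.70% lower. Most of the stellate and fibroblast sum was Dcn, with means of 363.6 CPM in DKO and 225.7 CPM in SKO. Lrat and Acta2 were not called (edgeR adjusted p = 0.156 and 0.819). Macrophage markers (5 genes) summed to 354 to 518 CPM in DKO and 266 to 330 CPM in SKO, with 3 called higher. Cholangiocyte markers (5 genes) summed to 121 to 199 CPM in DKO and 60.8 to 73.3 CPM in SKO, with 3 called higher. Most of that sum was Spp1, with means of 133.7 CPM in DKO and 55.6 CPM in SKO. Krt7 and Sox9 were not called (edgeR adjusted p = 0.301 and 0.475). Endothelial markers (5 genes) summed to 275.5 to 304.5 CPM in DKO and 302 to 327 CPM in SKO, with none called by edgeR and 1 lower at an unadjusted p under 0.05. B and plasma cell markers (8 genes) summed to 32.5 to 44.4 CPM in DKO and 31.0 to 47.0 CPM in SKO, with 2 called higher and 1 lower. The pancreatic acinar markers Cpa1, Pnlip, Ctrb1 and Prss2 had 0 counts in all 6 libraries. In bulk liver, fewer hepatocytes and less RNA per hepatocyte cannot be told apart, and the part of these cell type shifts in the changes below was not tested.

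Most of the oxidative folding genes fell in DKO. By edgeR's quasi-likelihood test, with p-values adjusted over the 13986 genes tested, 6 of the 10 were lower and none higher: Erp44, P4hb, Txndc5, Ero1lb, Txndc11 and Pdia6. Over all genes tested, 20.0% were called, 9.70% as lower and 10.3% as higher. In 8 of the 10 genes every DKO library lay below every SKO library, which held for 19.4% of all genes tested, and in none did every DKO library lie above, which held for 20.2%. These are TMM-scaled levels, and scaled by total counts alone the groups overlap for Pdia3 and Ero1l. None of the 10 was higher at an unadjusted p under 0.05 or by DESeq2 or limma-voom either. The median log2 fold change of the 10 was -0.63, beside 0.01 over all genes tested. Fold changes ran from -1.37 (Erp44) to -0.18 (Pdia4).

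**Figure D1:**
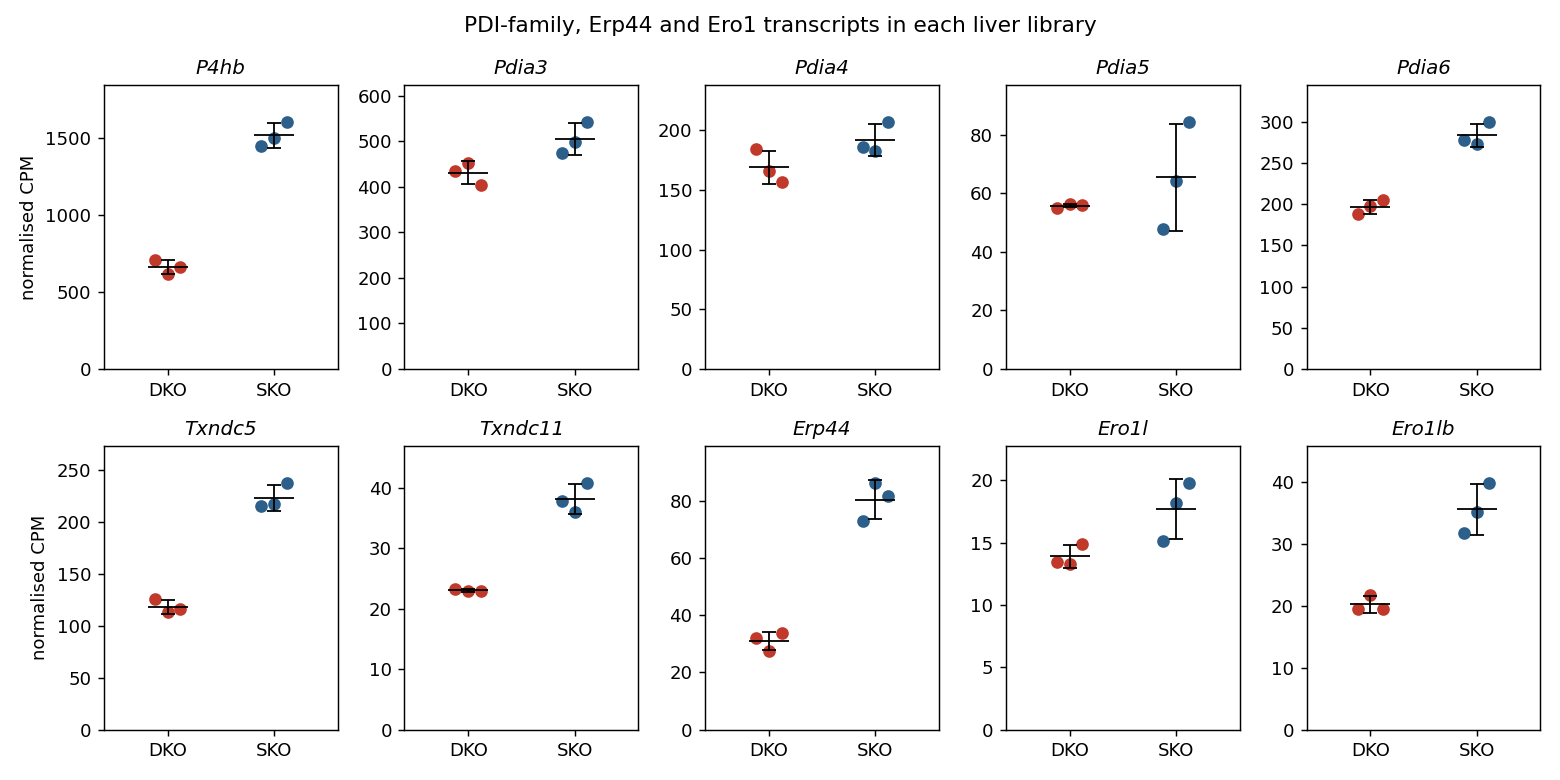
Normalised CPM (y axes, from 0) of each gene in the 3 DKO and 3 SKO liver libraries; points are libraries, and the bar and whiskers are the mean and SD. P4hb, Pdia6, Txndc5, Txndc11, Erp44 and Ero1lb separate widely, Pdia3 and Ero1l narrowly, and Pdia4 and Pdia5 overlap.

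Promoters of these genes were read for the motifs known for the unfolded protein response. The ER stress element ERSE, bound by ATF6 and XBP1 with the factor NF-Y, was searched as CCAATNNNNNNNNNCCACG, ERSE-II as ATTGGNCCACG, the core of the unfolded protein response element UPRE as TGACGTG and the XBP1 core as ACGTG, on both strands, in windows from 250 bases before to 50 after each RefSeq start (GRCm38.p6). UPRE matches always contain an ACGTG match, and ACGTG can overlap CCACG. The 10 genes have 14 such windows. ERSE was found in 2 of the 14, against 0.119% of 32851 windows of all genes, namely in Pdia6 and Ero1lb. The UPRE core was found in 2 of the 14, against 2.01% of all windows, namely at 1 start of Txndc5 and, in 2 copies, at 1 start of Txndc11. The ACGTG core was in 9 of the 14, against 19.6% of all windows, and ERSE-II was in 0 of the 14, against 0.0365%. The short element CCACG alone was in 11 of the 14, against 32.8%. The overlapping Erp44 windows hold the same ACGTG match, counted in each. By gene, ACGTG was in 7 of the 10, beside 21.8% of all genes, and CCACG in 9, beside 35.5%. The lists compared below also held both. ACGTG was in 6 of 14 other PDI-family genes, 3 of 7 ER oxidant genes and 3 of 7 PDI partners. CCACG was in 6 of 14, 3 of 7 and 5 of 7. For CCACG, the other PDI-family and ER oxidant genes were thus near the 35.5% of all genes. Among the uncalled genes, Pdia3 held none of these letters and Pdia4 only CCACG, while Pdia5 and Ero1l held both ACGTG and CCACG. A match is a run of letters and not a shown binding site.

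Shown are the windows of the pair of genes that fell most, Erp44 and P4hb, and every window of a called gene with an ERSE or UPRE match, each 5′ to 3′ on the gene's own strand. Capitals mark the fixed bases of ERSE, UPRE and ACGTG matches on either strand, so that CACGT is an ACGTG match on the other strand and CGTGG followed by ATTGG is an ERSE read backwards. They lie at chr4:48279586-48279885 (Erp44, minus strand, the first of its overlapping pair of windows), chr11:120573204-120573503 (P4hb, minus strand), chr13:38527865-38528164 (Txndc5, minus strand, the third of its windows), chr16:11134483-11134782 (Txndc11, minus strand, the first of its windows), chr12:17266339-17266638 (Pdia6, plus strand) and chr13:12565633-12565932 (Ero1lb, plus strand).
Erp44: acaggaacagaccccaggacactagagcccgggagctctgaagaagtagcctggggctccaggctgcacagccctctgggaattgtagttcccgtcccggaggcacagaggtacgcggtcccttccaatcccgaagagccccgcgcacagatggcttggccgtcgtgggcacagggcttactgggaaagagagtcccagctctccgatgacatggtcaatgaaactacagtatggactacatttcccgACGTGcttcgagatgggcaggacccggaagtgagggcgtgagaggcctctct
P4hb: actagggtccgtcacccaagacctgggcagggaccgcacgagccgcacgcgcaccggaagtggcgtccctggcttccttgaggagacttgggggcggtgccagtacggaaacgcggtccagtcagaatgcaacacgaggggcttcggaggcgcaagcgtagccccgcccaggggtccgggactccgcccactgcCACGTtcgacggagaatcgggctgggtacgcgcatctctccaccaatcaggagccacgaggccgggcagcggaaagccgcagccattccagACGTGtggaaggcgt
Txndc5: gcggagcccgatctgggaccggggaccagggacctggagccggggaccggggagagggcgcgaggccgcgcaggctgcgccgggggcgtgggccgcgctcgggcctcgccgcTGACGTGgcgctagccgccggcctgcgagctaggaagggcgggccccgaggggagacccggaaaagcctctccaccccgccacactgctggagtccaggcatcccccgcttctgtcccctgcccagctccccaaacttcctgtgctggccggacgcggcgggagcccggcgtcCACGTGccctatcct
Txndc11: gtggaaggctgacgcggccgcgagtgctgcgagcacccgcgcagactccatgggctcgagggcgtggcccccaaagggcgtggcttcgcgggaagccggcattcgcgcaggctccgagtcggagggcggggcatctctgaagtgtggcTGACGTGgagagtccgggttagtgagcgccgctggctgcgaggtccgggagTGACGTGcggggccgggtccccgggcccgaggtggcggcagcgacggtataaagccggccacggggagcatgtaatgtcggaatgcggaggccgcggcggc
Pdia6: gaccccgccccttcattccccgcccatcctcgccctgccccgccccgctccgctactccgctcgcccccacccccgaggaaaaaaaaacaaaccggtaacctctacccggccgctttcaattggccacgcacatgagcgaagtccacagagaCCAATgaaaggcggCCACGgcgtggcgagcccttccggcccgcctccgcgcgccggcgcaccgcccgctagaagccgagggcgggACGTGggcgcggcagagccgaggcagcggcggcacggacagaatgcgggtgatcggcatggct
Ero1lb: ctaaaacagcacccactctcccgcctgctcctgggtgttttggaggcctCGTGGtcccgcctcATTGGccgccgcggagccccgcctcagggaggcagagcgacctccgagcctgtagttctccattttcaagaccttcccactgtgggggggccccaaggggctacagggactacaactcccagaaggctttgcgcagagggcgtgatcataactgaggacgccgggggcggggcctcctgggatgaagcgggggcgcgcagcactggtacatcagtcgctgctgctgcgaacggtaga

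**Figure D2:**
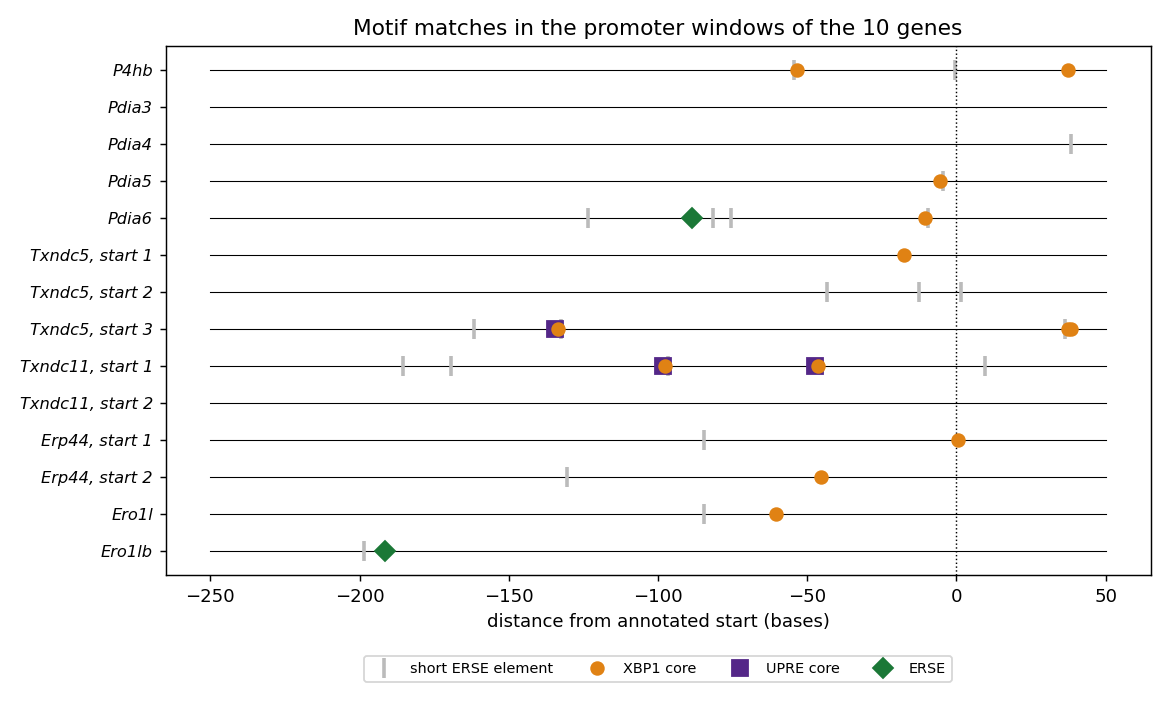
Positions of motif matches (symbols) in the 14 promoter windows of the 10 genes, as distance in bases from the annotated start (x axis); each line is 1 window, the XBP1 core is ACGTG and the short ERSE element is CCACG. ERSE matches lie in the Pdia6 and Ero1lb windows, UPRE cores at the first Txndc11 and the third Txndc5 start, and no match of any kind in the Pdia3 window or at the second Txndc11 start.

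P4hb encodes the founding PDI and is also the beta subunit of collagen prolyl 4-hydroxylase and of the microsomal triglyceride transfer protein. P4hb (ENSMUSG00000025130, chromosome 11, 120560298 to 120573253, mm10) was counted at 705, 615 and 660.4 CPM in the DKO libraries and 1446, 1499 and 1603 CPM in the SKO libraries. The groups lay far apart, with a gap wider than the range of either. Its mean was 660.1 ± 44.6 CPM in DKO and 1516 ± 79.7 CPM in SKO (SD, n = 3 each), leaving 43.6% of the SKO level (log2 -1.199 ± 0.10, edgeR adjusted p = 8.35e-05). P4hb made up most of the loss in the pool: the 10 genes summed to 1781, 1687 and 1690 CPM in DKO and 2805, 2910 and 3156 CPM in SKO, and P4hb accounted for 69.1% of that difference. The other 9 genes summed to 1059 ± 25.9 CPM in DKO and 1441 ± 101 CPM in SKO, 73.5% of the SKO level.

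Txndc5 encodes ERp46, a PDI with several thioredoxin domains that introduces disulfides rapidly. Txndc5 (ENSMUSG00000038991, chromosome 13, 38500079 to 38528824) stood at 126, 113 and 117 CPM in DKO and 215, 217 and 238 CPM in SKO. All DKO libraries were low, and the mean of 118.5 ± 6.76 CPM was 53.1% of the 223 ± 12.5 CPM in SKO (log2 -0.91 ± 0.08, edgeR adjusted p = 9.34e-05). Bmp6 and the antisense gene Gm31834 on the other strand share 11.9% of its exon bases, and strand use in counting is not stated. Both averaged 130 and 9.5 counts a library beside at least 2249 for Txndc5. Pdia6 encodes P5, a PDI that works with the chaperone BiP and is known to dampen IRE1 signalling. Pdia6 (ENSMUSG00000020571, chromosome 12, 17266545 to 17284770) stood at 187.5, 198 and 205 CPM in DKO and 278, 273 and 299.7 CPM in SKO. The groups did not overlap, and the fold change was -0.53 ± 0.08 (log2, edgeR adjusted p = 0.00212). Txndc11 encodes a membrane-bound thioredoxin-domain protein known as a partner of the ER degradation factor EDEM3. Txndc11 (ENSMUSG00000022498, chromosome 16, 11074911 to 11134650) stood at 23.4, 22.9 and 23.0 CPM in DKO and 37.9, 36.0 and 40.9 CPM in SKO. The DKO libraries were nearly alike, with an SD of 0.227 CPM, and the fold change was -0.73 ± 0.08 (log2, edgeR adjusted p = 0.000317).

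The other 3 PDI genes were not called. Pdia3 encodes ERp57, which calnexin and calreticulin recruit to folding glycoproteins. Pdia3 (ENSMUSG00000027248, chromosome 2, 121413775 to 121438687) stood at 435, 453 and 404 CPM in DKO and 474, 498 and 542 CPM in SKO. All DKO libraries lay under the lowest SKO library, though by a small margin (log2 -0.23 ± 0.09, unadjusted 95% interval -0.44 to -0.02, edgeR adjusted p = 0.111). With total-count scaling the Pdia3 estimate was -0.011 (edgeR adjusted p = 0.941) and the groups overlapped. Pdia4 encodes ERp72, a PDI found with BiP and GRP94. Pdia4 (ENSMUSG00000025823, chromosome 6, 47796141 to 47813430) stood at 184, 165.5 and 157 CPM in DKO and 186, 183 and 207 CPM in SKO. DKO replicate 1 reached above the lowest SKO library (log2 -0.18 ± 0.09, interval -0.38 to 0.01, edgeR adjusted p = 0.171), and with total-count scaling the estimate was 0.04. Pdia5 encodes PDIR, known as a regulator of the stress sensor ATF6. Pdia5 (ENSMUSG00000022844, chromosome 16, 35397312 to 35490873) stood at 55.2, 56.4 and 55.9 CPM in DKO and 47.8, 64.2 and 84.4 CPM in SKO. The spread was in SKO, whose SD of 18.4 CPM compares with 0.629 CPM in DKO, and the interval ran from -0.67 to 0.21 around an estimate of -0.23 on the log2 scale (adjusted p = 0.435, edgeR). Without SKO replicate 1, the lowest SKO library, Pdia5 was called lower (log2 -0.41, edgeR adjusted p = 0.0359). These unadjusted intervals reach the Pdia6 estimate of -0.53 in Pdia5, but not in Pdia3 or Pdia4. The interval of Pdia6 itself, -0.71 to -0.35, overlaps those of all 3 genes, and differences between genes were not tested.

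Erp44 showed the largest fold change of the 10. Erp44 (ENSMUSG00000028343, chromosome 4, 48193323 to 48279558) stood at 31.9, 27.6 and 33.8 CPM in DKO and 73.0, 86.3 and 81.8 CPM in SKO. The gap between the groups was wider than the range within either. The mean was 31.1 ± 3.16 CPM in DKO and 80.4 ± 6.78 CPM in SKO, leaving 38.6% (log2 -1.37 ± 0.09, edgeR adjusted p = 2.11e-05). It ranked 25th by p-value of the 13986 genes tested, and P4hb ranked 53rd.

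Of the ERO1 oxidase genes, Ero1lb fell and Ero1l was not called. Ero1l encodes the broadly expressed oxidase, and Ero1lb the form best known from pancreas, where it serves proinsulin folding. Ero1lb (ENSMUSG00000057069, chromosome 13, 12565874 to 12611396) stood at 19.5, 21.9 and 19.6 CPM in DKO and 31.8, 35.2 and 39.96 CPM in SKO. All DKO libraries were low (20.3 ± 1.36 against 35.7 ± 4.09 CPM, log2 -0.81 ± 0.10, edgeR adjusted p = 0.00069). Ero1l (ENSMUSG00000021831, chromosome 14, 45283087 to 45318771) stood at 13.5, 13.3 and 14.9 CPM in DKO and 15.1, 18.2 and 19.8 CPM in SKO. Its groups were separated only by the gap between DKO replicate 3 and SKO replicate 1, and it was not called (log2 -0.35 ± 0.12, interval -0.61 to -0.10, edgeR adjusted p = 0.0549). It was called lower without SKO replicate 1 (log2 -0.45, edgeR adjusted p = 0.0208) and with no filter on low counts (adjusted p = 0.0213). Ddit3, whose product CHOP is known to induce Ero1l, stood at 16.4, 10.8 and 19.9 CPM in DKO and 6.48, 8.66 and 5.63 CPM in SKO (log2 1.18 ± 0.25, edgeR adjusted p = 0.0149).

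The ratio of Ero1lb to Ero1l needs no scaling between libraries. Per kilobase of exon it was 1.148, 1.31 and 1.04 in DKO and 1.67, 1.54 and 1.602 in SKO. Ero1lb was thus the more abundant oxidase mRNA in all 6 libraries, by less in DKO (mean ratio 1.17 ± 0.135 in DKO and 1.604 ± 0.068 in SKO). The ranges did not overlap, and the exact two-sided permutation test gave p = 0.1, the smallest that 3 against 3 libraries allow.

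The make-up of the pool shifted accordingly. Of the summed level per kilobase of the 10 genes, P4hb took 42.7%, 39.6% and 42.4% in DKO and 55.8%, 55.7% and 54.9% in SKO. Pdia3 took 24.0%, 26.6% and 23.7% in DKO and 16.7%, 16.9% and 16.9% in SKO, and Pdia4 took 12.7% ± 0.638 in DKO and 8.36% ± 0.232 in SKO. Shares of Pdia5, Pdia6 and Ero1l were also higher in every DKO library, and those of Txndc5 and Erp44 lower in every one. Each of these 8 had an exact two-sided permutation p of 0.1, the smallest possible, and 0.125 adjusted over the 10 genes. Shares of a library are parts of the same whole, so a lower P4hb share raises the others together. These 8 results are therefore not separate, and Pdia6 gained share although its level was called lower. The shares of Txndc11 (exact permutation p = 0.2) and Ero1lb (p = 0.8) overlapped between groups. A share within a library shows unequal change and not that any gene stayed constant. Without length correction, the share differences of Pdia4, Txndc5, Txndc11 and Ero1l moved in size but not in direction.

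**Figure D3:**
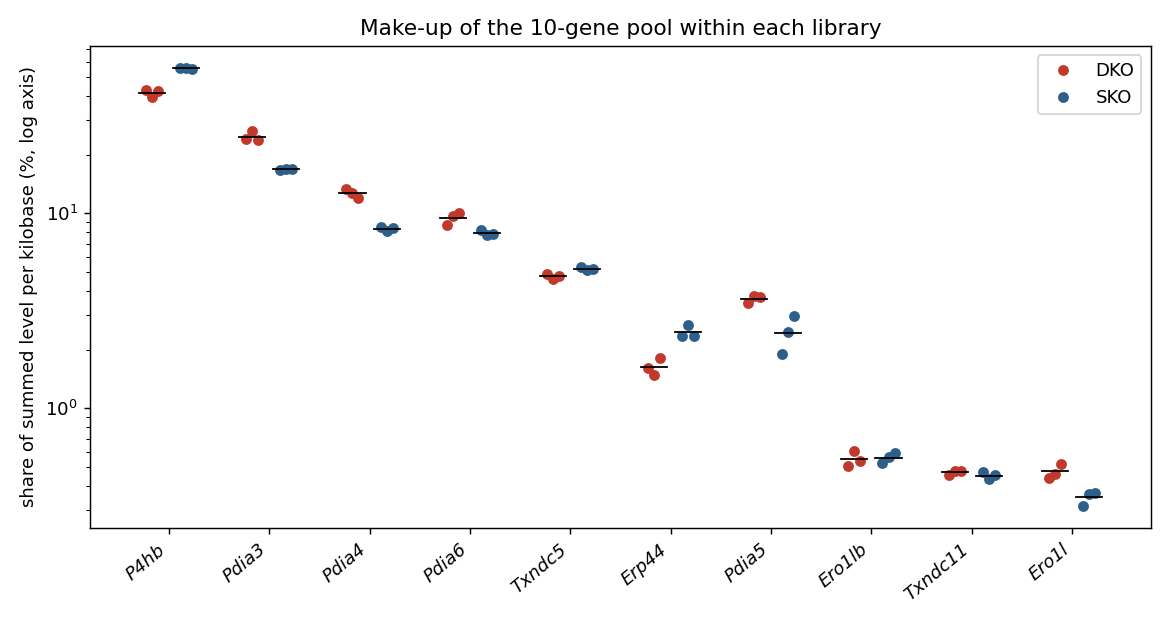
Share of each gene in the summed level per kilobase of exon of the 10 genes, in percent on a log axis, for the 3 DKO and 3 SKO libraries; points are libraries and lines are means. The P4hb share averaged 41.6% in DKO and 55.4% in SKO, and the Pdia3 share 24.8% in DKO and 16.8% in SKO.

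The order of levels per kilobase of exon changed little, whereas the order in CPM without length correction changed more. In CPM, Txndc5 lay above Pdia4 in SKO (means 223.4 and 191.8) and below it in DKO (118.5 and 168.8). Erp44 lay above Pdia5 in SKO (80.4 and 65.5) and below it in DKO (31.1 and 55.8). Per kilobase of exon, the DKO order was P4hb (231 ± 15.6 CPM per kilobase), Pdia3 (137), Pdia4 (70.3), Pdia6 (52.6), Txndc5 (26.4), Pdia5 (20.1), Erp44 (9.09), Ero1lb (3.05), Ero1l (2.63) and Txndc11 (2.61). In DKO every neighbour pair was separated across libraries except Ero1l and Txndc11. The SKO order was P4hb (529.8 ± 27.9 CPM per kilobase), Pdia3 (161), Pdia4 (79.9), Pdia6 (75.8), Txndc5 (49.7), Pdia5 (23.6), Erp44 (23.5), Ero1lb (5.36), Txndc11 (4.33) and Ero1l (3.35). In SKO the library ranges of Pdia4 and Pdia6 overlapped, as did those of Pdia5 and Erp44. The oxidases and Txndc11 held the lowest 3 places in both groups.

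Among SKO libraries the genes often ranked alike. SKO replicate 3 was the highest SKO library for 9 of the 10 genes, all but Erp44, and SKO replicate 1 the lowest for 7. The mean of the 10 log2 levels, each centred on its gene, was -0.30, -0.34 and -0.32 in the DKO libraries and 0.20, 0.31 and 0.46 in the SKO libraries. DKO replicate 1, far out on the principal component, was not apart here. Outside the 10, the 5 genes of at least 10 CPM whose centred profile over the 6 libraries was closest to that mean, by root mean square difference in log2 units, were Sec23b (0.0328), Sec61a1 (0.0422), Rpn2 (0.0432), Hook1 (0.0462) and Slc35b1 (0.0513), out of 8205 ranked. Sec61a1 encodes the main subunit of the ER translocon and stood at 97.9 ± 5.43 CPM in DKO and 152 ± 17.4 CPM in SKO. Rpn2 encodes a subunit of the oligosaccharyltransferase and stood at 135 ± 3.38 CPM in DKO and 202 ± 20.4 CPM in SKO. Sec23b, a coat component of vesicles leaving the ER, Hook1, a motor adaptor, and Slc35b1, an ER nucleotide transporter, had log2 fold changes of -0.70, -0.64 and -0.67. Being chosen for this profile, these 5 genes had to be lower in DKO, and their levels are a description.

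Other PDI-family genes, listed with earlier results of these data known, moved both ways. Of 17 listed, 13 were tested, 4 were called lower and 2 higher, with a median log2 fold change of 0.04, beside 9.70% lower and 10.3% higher over all genes. Creld2, an ER protein with isomerase-like CXXC motifs and a known ER stress gene, stood at 20.95, 20.6 and 20.7 CPM in DKO and 39.2, 35.5 and 50.5 CPM in SKO (log2 -1.01 ± 0.12, edgeR adjusted p = 0.00069). Its promoter window also held an ERSE match, the only one among the 14 of these 17 genes with a window. The chaperone genes Calr and Canx held one too, though neither was called (edgeR adjusted p = 0.561 and 0.0658). The membrane-bound Tmx4 (23.9 ± 3.87 CPM in DKO and 34.1 ± 2.48 in SKO, log2 -0.52 ± 0.12), Txndc15 (log2 -0.33 ± 0.07) and Dnajc10, the disulfide reductase ERdj5 (31.0 ± 1.78 CPM in DKO and 38.3 ± 2.46 in SKO, log2 -0.31 ± 0.08), were also lower. Txndc12, the small ER thioredoxin ERp18, was higher (45.1 ± 2.80 CPM in DKO and 33.9 ± 3.38 in SKO, log2 0.41 ± 0.09), as was the selenoprotein gene Selenom (3.63 ± 0.0614 CPM in DKO and 2.08 ± 0.487 in SKO, log2 0.81 ± 0.22). Calls of Tmx4, Txndc15, Dnajc10 and Selenom ended in at least 2 fits that left out 1 library or rescaled (edgeR adjusted p up to 0.0642, 0.235, 0.512 and 0.0873). The most abundant uncalled genes were Selenof (184 ± 7.32 CPM in DKO and 196 ± 18.3 in SKO) and Erp29 (50.8 ± 3.46 CPM in DKO and 49.6 ± 3.30 in SKO), which shares 26.4% of its exon bases with other genes. Pdia2, Agr2 and Agr3 had at most 1 count and Erp27 at most 4 in any library, and these 4 were not tested.

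Among 7 other ER genes that make or consume oxidising power, 2 were lower and none higher by edgeR, beside 9.70% lower and 10.3% higher over all genes. Prdx4, the ER peroxiredoxin that uses the peroxide made by ERO1, stood at 56.2, 56.2 and 61.5 CPM in DKO and 82.4, 87.6 and 73.3 CPM in SKO (log2 -0.49 ± 0.08, edgeR adjusted p = 0.00365). Vkorc1l1, a vitamin K epoxide reductase that can also pass electrons in the ER, stood at 45.7, 51.6 and 49.9 CPM in DKO and 64.2, 70.5 and 67.8 CPM in SKO (log2 -0.46 ± 0.07, edgeR adjusted p = 0.00258). The most abundant uncalled genes were the secreted sulfhydryl oxidase Qsox1 (279 ± 9.37 CPM in DKO and 323 ± 39.6 in SKO) and Vkorc1 (47.7 ± 4.59 CPM in DKO and 56.2 ± 2.40 in SKO), which shares 47.7% of its exon bases with another gene. At an unadjusted p under 0.05, 2 of the 7 were higher, and none by DESeq2 or limma-voom after adjustment.

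Of 8 genes whose products bind PDIs, 6 were tested, with 1 called lower and 1 higher, beside the 20.0% called in either direction over all genes. Tapbp, tapasin, which pairs with ERp57 in loading of MHC class I, was lower (66.5 ± 7.08 CPM in DKO and 91.1 ± 3.20 in SKO, log2 -0.45 ± 0.09, edgeR adjusted p = 0.00607), and lost its call with total-count scaling (log2 -0.23, adjusted p = 0.0777). Other genes share 29% of its exon bases, and their part in its counts was not tested. P4ha2, a catalytic subunit of collagen prolyl 4-hydroxylase, was higher (13.2 ± 2.04 CPM in DKO and 9.13 ± 1.04 in SKO, log2 0.53 ± 0.14, edgeR adjusted p = 0.0248), beside higher fibroblast markers, and lost its call when DKO replicate 1, SKO replicate 2 or SKO replicate 3 was left out (adjusted p up to 0.0898). Calr (687 ± 39.5 CPM in DKO and 737 ± 87.5 in SKO) and Mttp (402 ± 24.8 CPM in DKO and 459.7 ± 17.2 in SKO) were the most abundant uncalled partners, Mttp sharing 9.49% of its exon bases with other genes, and Canx was not called either (log2 -0.25 ± 0.09, edgeR adjusted p = 0.0658). Clgn and P4ha3 had at most 3 counts in any library. Per kilobase, P4hb exceeded Mttp by 4.0, 3.11 and 3.63 times in DKO and by 6.57, 7.09 and 7.85 times in SKO. P4hb mRNA thus stayed above that of its partner in each library, with ratios that did not overlap between groups (exact two-sided permutation p = 0.1, the smallest possible).

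**Figure D4:**
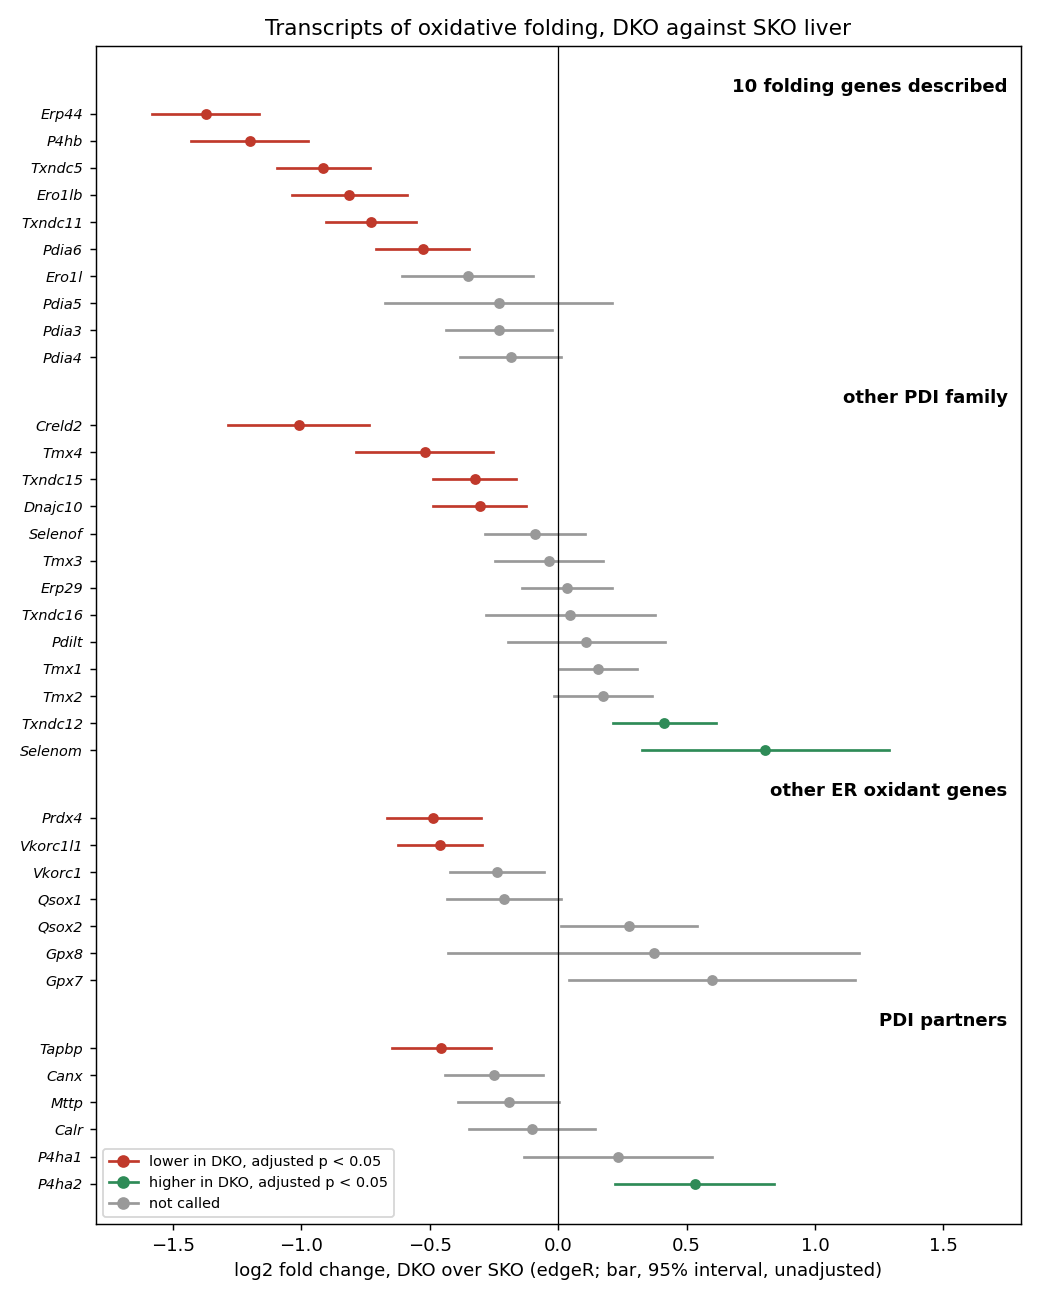
Log2 fold change, DKO over SKO (x axis), of every tested gene of the 4 lists, with unadjusted 95% intervals as bars; red is lower and green higher in DKO at an edgeR adjusted p under 0.05, grey is not called. The 10 genes described all lie left of 0, with Erp44 at -1.37 and Pdia4 at -0.18 (0.04 with total-count scaling), while the other lists spread to both sides. All 4 lists were chosen with earlier results of these data known, so this split is a description.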

How the data were processed

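Liver RNA was sequenced in 3 DKO and 3 SKO libraries. The deposited files hold the authors' read counts per Ensembl gene; the file headers name them counts, and their whole numbers and unequal totals show no scaling. Per the submitters' processing notes, the tools were STAR, HTSeq 0.6.1p1, cutadapt 1.13 and DESeq2, with the mm10 build; their settings, annotation release and strand use are not stated. Groups come from the genotype label. Replicate numbers follow accession order and pair nothing. The labels do not state that each library is a different mouse, so the p-values reflect only library-to-library spread, which may be technical. No within-group pair was close enough in a chi-square comparison of counts to be 1 library deposited again.

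Symbols, coordinates and union exon lengths came from GENCODE M21, the same assembly as mm10, which matched 54165 of the 54232 identifiers. Counts were filtered (filterByExpr, 13986 genes kept), scaled with TMM factors (1.05 to 1.13 in DKO and 0.903 to 0.951 in SKO) and tested in edgeR 4.0.16 (R 4.3.3; glmQLFit and glmQLFTest, robust), DKO against SKO, with Benjamini-Hochberg adjustment and calls at 0.05. CPM use effective library sizes (total by TMM factor), and SE is the log2 fold change over the square root of F. A count of 0 allows up to 3 counts, or 0.126 to 0.156 CPM in DKO and 0.164 to 0.191 CPM in SKO, for counting error only. On simulated counts for this comparison with 13828 genes in the fit, edgeR recovered 100 of 100 genes changed by 1.2 (log2) and 21 of 100 changed by 0.4. The simulation left 13628 genes unchanged, whereas 20.0% of all genes tested were called in the real data. Recovery at 0.4 may therefore differ here. Single ratios and shares were tested by exact permutation over libraries. Promoter windows came from RefSeq (GRCm38.p6), where all 10 genes matched, and motif shares are over windows of equal length. Alternatives were RLE, upper-quartile and total-count scaling, no filter, DESeq2 1.42.0, limma-voom (limma 3.58.1) and leaving out each library. The 10 genes and the lists of other genes were chosen with earlier results of these data known. Genes named are the 10, Xbp1, Nr1h4, Hspa5, Ddit3 and Atf4, all called genes and the most abundant uncalled ones of the 3 other lists, and the 5 nearest profiles. Outside that rule, listed cell type markers, genes sharing exons with Txndc5, listed genes with too few counts to test and Canx were named after their values were seen.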

Additional observations from a re-analysis of the deposited data

How the results depend on the processing

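The same 6 genes (Erp44, P4hb, Txndc5, Ero1lb, Txndc11 and Pdia6) were called lower in all 12 alternatives, 6 of settings and 6 that left out 1 library each, and none of the 10 was called higher in any. The highest adjusted p among them was 0.0169, for Pdia6 with total counts. With no filter 7 were lower and without SKO replicate 1, 8. Total-count scaling moved the median of all genes to 0.23 (log2) and the fold changes with it, to -1.15 for Erp44, -0.98 for P4hb and -0.31 for Pdia6. The uncalled Pdia3, Pdia5 and Ero1l moved to -0.011, -0.015 and -0.134. The uncalled Pdia4 turned to 0.04, the only direction among the 10 that changed. Total-count scaling gave 4387 genes called over the whole table, 1 lower and 4 higher among the other PDI-family genes, 2 higher among the other ER oxidant genes and 0 lower among PDI partners, where DESeq2 gave 2 lower. Leaving out 1 library gave 1419 to 2739 genes called, beside 2803 with all libraries. The lowest counts came without SKO replicate 2 (1419), SKO replicate 3 (1784) and DKO replicate 3 (1831). Among other PDI-family genes these fits gave 1 to 4 lower and 1 to 2 higher, and among PDI partners 0 to 1 higher. The causes of these shifts were not tested. The log2 difference of the Ero1lb to Ero1l ratio between groups was -0.47, and -0.55 to -0.39 with 1 library left out. No paired analysis was possible because the labels give no replicate numbers shared between groups. With 3 libraries a group, changes near 0.4 (log2) were mostly not recovered in simulation, where a smaller part of the genes changed than was called here. Smaller changes were called in the real data, among them Hspa5 (log2 -0.33) and Atf4 (log2 -0.25), so the simulated recovery does not decide what could be missed. Uncalled genes such as Ero1l and Pdia3 are not shown to be unchanged. Their unadjusted intervals (log2 -0.61 to -0.10 for Ero1l and -0.44 to -0.02 for Pdia3) hold only lower levels in DKO.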
